A study of Mus musculus with 6 samples.

Results

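The cytosolic ribosomal protein genes were examined in 6 droplet single-cell RNA libraries of murine dendritic cells (DCs) and of skin wounds. Every gene symbol that starts with Rpl or Rps and a digit was taken, with Rpsa and Rplp0 to Rplp2, while pseudogene symbols with -ps and the Rps6k kinases were left out. This gave 86 members among the 31053 gene rows that all 6 matrices share. Of these, 77 encode core subunits of the ribosome (31 of the small subunit, 43 of the large subunit and the 3 stalk proteins), 8 are paralogs of a core gene, and Rps19bp1 encodes a nucleolar protein that binds Rps19 and is no subunit. The members lie on 19 chromosomes, with 14 on chromosome 7 and 4 on the X chromosome. The label holds for the core genes; Rack1 and the fusion gene Fau, which also encode ribosomal subunits, are outside the symbol rule and are given apart.

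Each condition was 1 library. DCs were grown from the bone marrow of C57/BL6 mice with GM-CSF and only cells in suspension were taken. They were left untreated, stimulated with vitamin D3 (VD3, calcitriol) at 1e-06 M for 24 h, or nucleofected with Cas9 protein and 3 guides to knock out Ndrg2 (Ndrg2-KO). The untreated DCs were not nucleofected, so loss of Ndrg2 and nucleofection cannot be told apart in culture. Splinted full-thickness wounds of 6-week-old wild-type mice received a collagen-pullulan hydrogel seeded with control DCs, with Ndrg2-KO DCs, or blank, and were explanted on day 10, with the tissue of several mice in 1 library per group. The control DCs of the wounds are labelled untreated, whereas the study's methods describe nucleofection with non-targeting guides. The series' design text also speaks of GFP+ cells isolated from "parabiome" wounds, which the study's methods do not describe for these libraries, so whether the wound cells were selected for GFP is uncertain. Since each condition is a single library, conditions could not be tested against each other, and every interval below is an exact 95% interval that covers counting error only.

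A ribosome is built from a small subunit, which reads the mRNA, and a large subunit, which joins amino acids, and each needs 1 copy of nearly every ribosomal protein. The acidic stalk proteins Rplp1 and Rplp2 sit on Rplp0 at the large subunit and recruit the factors that drive elongation. mRNAs of ribosomal proteins start with a cytosine followed by a tract of pyrimidines, through which growth signals by mTOR set their translation, and they are stable and abundant in most cells. Paralogs such as Rpl3l, Rpl10l and Rpl39l are known from muscle or testis, and Rps27l is a target of p53.

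After filtering (at least 300 genes, under 100000 unique molecular identifiers (UMIs) and under 10% mitochondrial UMIs per cell), 7257, 8825 and 7969 untreated, VD3 and Ndrg2-KO DCs and 1948, 5681 and 3403 cells of control, Ndrg2-KO and blank wounds were kept, with 29675507 to 143627482 UMIs per library and a median of 4415 to 16316 UMIs per cell. Barcodes shared between any pair of libraries numbered 1 to 19. Ndrg2, the targeted gene, was at 4.62 UMIs scaled to a library of 1000000 (CPM) in untreated DCs, at 1.42 in VD3 DCs and at 0.884 in Ndrg2-KO DCs, which is low in all 3. In the wounds it was at 6.10 CPM in control, 3.33 in Ndrg2-KO and 3.29 in blank wounds, which hold host cells.

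Members made up a large part of the RNA of cultured DCs and a smaller part of that of wound cells. They took 20.5% of the UMIs of untreated DCs (20.497 to 20.511), 24.6% of those of VD3 DCs and 14.2% of those of Ndrg2-KO DCs. In the wounds it was 10.7% in control, 10.7% in Ndrg2-KO and 10.1% in blank wounds. The 3 cultures were thus apart by several percentage points, while the 3 wounds lay within 1 point of each other. The median depth per cell was 15804, 12089 and 16316 UMIs in untreated, VD3 and Ndrg2-KO DCs, and its part in the order of the shares was not tested.

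**Figure D1:**
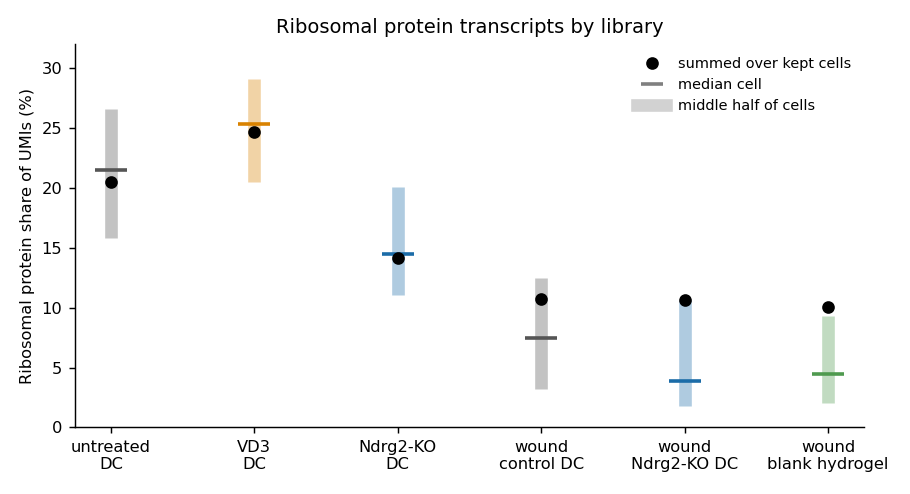
Share of UMIs from ribosomal protein genes (vertical axis, percent) in the 6 libraries (horizontal axis). Black dots are UMIs summed over kept cells, short lines the median cell and shaded bars the range between the quartiles of cells. VD3 DCs sit highest at 24.6%, Ndrg2-KO DCs are lowest among the cultures at 14.2%, and in the wounds the median cell (3.85% to 7.50%) lies below the summed share.

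In the wounds the median cell differed from the sum. Its share was 7.50% in control, 3.85% in Ndrg2-KO and 4.44% in blank wounds, below the summed share in all 3. In culture the median cell was at 21.5%, 25.3% and 14.5% in untreated, VD3 and Ndrg2-KO DCs, close to the sums. Per cell, the median number of member UMIs was 3422 in untreated, 3160 in VD3 and 2316 in Ndrg2-KO DCs, and the median number of all other UMIs was 12042, 8765 and 13804. The median VD3 cell thus held fewer member UMIs than the median untreated cell and still fewer of the others, whereas the median Ndrg2-KO cell held fewer member UMIs and more of the others.

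Small and large subunit genes kept nearly the same balance everywhere. Small subunit members gave 45.7% to 46.1% of the members' UMIs in the 6 libraries, and large subunit members other than the stalk gave 48.6% to 50.2%. The stalk genes gave 5.34% in untreated DCs, 5.12% in VD3 DCs and 5.001% to 5.23% in the wounds, but 3.997% in Ndrg2-KO DCs. The core genes together held 98.9% to 99.2% of all members' UMIs. Among the 50 genes with most UMIs, 28 were members in untreated DCs, 31 in VD3 DCs, 15 in Ndrg2-KO DCs and 10 to 15 in the wounds.

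The highest mean level over the 6 libraries was that of Rpsa, a small subunit protein that also serves as a laminin receptor, followed by Rpl41, which encodes the shortest of the ribosomal proteins, and Rpl23. Rpsa was at 6992, 8487 and 4258 CPM in untreated, VD3 and Ndrg2-KO DCs and at 1612, 1573 and 1495 CPM in control, Ndrg2-KO and blank wounds, so that every culture lay above every wound. Rpl41 was at 5024, 5638 and 2546 CPM in the cultures and at 3552, 3463 and 3608 CPM in the wounds, and Ndrg2-KO DCs were the lowest library. Rpl23 was at 5566, 6850 and 3937 CPM in the cultures and at 2031, 2186 and 1941 CPM in the wounds. The most counted member of the wounds was Rps29, a small zinc-binding subunit, at 4098 to 4361 CPM. The lowest core genes by mean level were Rpl13a, at 91.7 to 131 CPM, Rpl27, at 217 to 528 CPM, and Rpl31, at 401 to 606 CPM. These are levels of 3′ tags and were not scaled to length. Rpl13a, a large subunit protein with a role in interferon-driven translational control, has near-identical pseudogene copies, so its low count is uncertain where reads that match several places were dropped.

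In VD3 against untreated DCs, the members' share was 1.20-fold as high (log2 ratio 0.26). Of the 85 members with at least 200 UMIs in both libraries together, 71 were higher and 14 lower, with a median log2 ratio of 0.28 beside -0.07 over the 11135 genes with at least 100 UMIs in each library. Rpl10l had too few UMIs to be tested here and in the other comparisons, as did Rpl3l in the wounds. No member passed 1.5-fold in either direction, beside 8.07% of all 11493 genes tested that passed it upward and 14.3% downward. The core genes differed less among themselves than genes at large: the standard deviation of the log2 ratio was 0.16 over the 77 core genes and 0.58 over all genes. Here and with Ndrg2-KO DCs, all genes are those with at least 100 UMIs in each library. They were not matched to the core genes by level. The core genes lay between a log2 ratio of -0.26 (Rpl23a) and 0.46 (Rps7). Rps7, a small subunit protein that can bind the p53 ligase Mdm2, was at 3097 CPM against 2244 CPM, and Rpl10a and Rps27 followed at log2 ratios of 0.44 and 0.43.

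In all, 3 members stood 1.5-fold or more below the member median, beside 33.7% of all genes that stood so far from it in either direction. The reference point is the members' own median and not that of all genes, so here and in the other comparisons nothing is read from the member count against this share. All 3 are paralogs. Rps27l, a small subunit paralog induced by p53, was at 841 CPM in VD3 DCs and at 1222 CPM in untreated DCs (log2 ratio -0.54, -0.55 to -0.53), while its parent gene Rps27 was at 2275 against 1684 CPM. Rpl39l had 112 UMIs against 181 (log2 ratio -0.51, -0.86 to -0.16). Rpl7l1, which takes part in ribosome assembly, was at 59.8 against 74.8 CPM (log2 ratio -0.32). Rpl3l, at a log2 ratio of -0.30, lay just inside 1.5-fold from the member median. Rps19bp1 was also lower, at 40.7 against 47.2 CPM. Of the 14 lower members, 9 were core genes, among them Rpl23a, Rpl13a, Rps15 and Rpl12, none further than a log2 ratio of -0.26.

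In Ndrg2-KO against untreated DCs, the members' share was 0.691-fold (log2 ratio -0.53), the largest difference of the 4 comparisons. The untreated library is the same as in the VD3 comparison. Of 85 members tested, 83 were lower and 2 higher, with a median log2 ratio of -0.50 beside -0.06 over 11143 genes. At least 1.5-fold lower were 30 members, of which 27 were core genes, and 1 was that much higher, Rps27rt. Of all 11669 genes tested, 16.9% were lower and 16.1% higher by this fold. When the libraries were scaled to the median of all genes instead of the UMI total, 19 members were lower and 1 higher by this fold. The core genes spread more than with VD3, with a standard deviation of 0.26 and a range of -1.63 to 0.05, beside 0.75 over all genes.

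**Figure D2:**
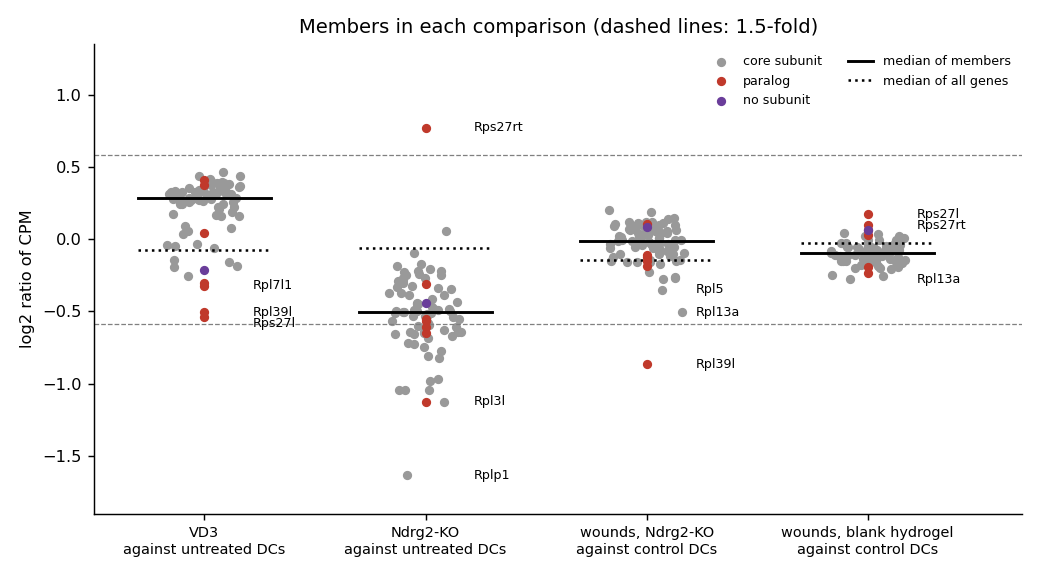
log2 ratio of CPM (vertical axis) of each member with at least 200 UMIs in the pair of libraries, for the 4 comparisons (horizontal axis). Grey points are core subunits, red points paralogs and the purple point Rps19bp1, solid lines mark the members' median, dotted lines the median of all genes and dashed lines 1.5-fold. Most members lie above the dotted line with VD3 (median 0.28), and nearly all lie below it in Ndrg2-KO DCs (median -0.50), where Rplp1 at -1.63 and Rps27rt at 0.77 stand apart.

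In Ndrg2-KO DCs, 4 members stood 1.5-fold or more from the member median of -0.50, beside 45.9% of all genes, whose own median was -0.06. The lowest was Rplp1, a stalk protein (chr9:61913284-61914542, minus strand, GRCm38), at 1551 CPM against 4817 CPM (log2 ratio -1.63, -1.64 to -1.63). In the other libraries Rplp1 was at 5075 CPM with VD3 and at 2515, 2263 and 2196 CPM in control, Ndrg2-KO and blank wounds, so Ndrg2-KO DCs held the lowest value. Its partners differed less, with Rplp2 at 1338.5 against 2110 CPM (log2 ratio -0.66) and Rplp0 at 2775.5 against 4013 CPM (-0.53). Rps26, which sits at the mRNA exit of the small subunit, was at 1174 against 2558 CPM (-1.12), and the muscle paralog Rpl3l at 5.21 against 11.4 CPM (-1.12, -1.252 to -0.997). Rps12, Rps28 and Rps2 followed at log2 ratios of -1.04, -1.04 and -1.04, and Rpl41 at -0.98.

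At the other end, Rps9, a small subunit protein of the decoding side, was at 3228 CPM in Ndrg2-KO and at 3111 CPM in untreated DCs (0.05), the only core gene that was not lower, and Rpl10a was at 1353 against 1448 CPM (-0.10). Rps27rt, a single-exon copy of Rps27 (chr9:114982366-114982739, minus strand), was at 85.9 CPM against 50.4 CPM (0.77, 0.73 to 0.81) while Rps27 was at 1136 against 1684 CPM (-0.57). The copy is close to Rps27 in sequence, so the split of reads between them is uncertain. The 9 pseudogene rows outside the rule held 0.133% as many UMIs as the members in Ndrg2-KO DCs, 0.0808% in untreated and 0.0794% in VD3 DCs, where the members' own UMIs differ. As a level they were at 189, 166 and 195.5 CPM, with Ndrg2-KO DCs below VD3 DCs. Of the 9 rows, 8 were at a higher value in Ndrg2-KO than in untreated DCs, among them Rpl10-ps3 at 53.8 against 35.3 CPM, Rpl9-ps6 at 46.6 against 37.0 CPM and Rps12-ps3 at 31.7 against 31.3 CPM. Rpl36a-ps1 was lower, at 11.8 against 28.6 CPM. No minimum was set for these rows, and the 8 include Rpl36-ps4 at 0.0139 against 0.00754 CPM and Rpl9-ps1 at 0.237 against 0.0905 CPM. The share of all genes at a higher value was not taken, so nothing is read from this count.

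The promoters are shown for the 3 lowest and 3 highest members of this comparison, apart from Rplp1, which has no entry, and for Rps27 and Rps27l, which differed in direction with VD3, because a pyrimidine tract at the start of the mRNA is the sequence by which ribosomal protein mRNAs are known. Windows run from 35 bases before to 15 bases after each start annotated by RefSeq (GRCm38.p6), in the direction of transcription, and capitals mark runs of at least 8 bases that are all C or T.
Rps26 (chr10:128626492-128626541, minus strand): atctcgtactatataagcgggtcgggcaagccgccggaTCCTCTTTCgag
Rpl3l (chr17:24727791-24727840, plus strand, first entry): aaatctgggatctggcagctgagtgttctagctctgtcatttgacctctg
Rpl3l (chr17:24732650-24732699, plus strand, other entry): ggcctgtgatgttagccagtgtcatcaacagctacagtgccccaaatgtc
Rps27rt (chr9:114982725-114982774, minus strand): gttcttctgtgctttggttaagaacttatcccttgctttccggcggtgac
Rps9 (chr7:3704006-3704055, plus strand): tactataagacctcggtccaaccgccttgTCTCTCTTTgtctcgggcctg
Rpl10a (chr17:28328436-28328485, plus strand, first entry): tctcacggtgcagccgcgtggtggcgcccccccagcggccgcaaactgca
Rpl10a (chr17:28328530-28328579, plus strand, other entry): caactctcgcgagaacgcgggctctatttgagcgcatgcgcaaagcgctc
Rps27 (chr3:90213634-90213683, minus strand): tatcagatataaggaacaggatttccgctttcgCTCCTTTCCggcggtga
Rps27l (chr9:66946051-66946100, plus strand, first entry): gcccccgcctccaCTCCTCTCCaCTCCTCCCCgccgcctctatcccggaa
Rps27l (chr9:66946378-66946427, plus strand, other entry): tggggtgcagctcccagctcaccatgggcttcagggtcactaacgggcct
Such a run is present in the windows of Rps26, Rps9 and Rps27 and in 1 of 2 windows of Rps27l. In Rps9 and Rps27 the run spans the annotated start, and in Rps26 it lies after the start. In Rps27l the runs end before the annotated start and so lie outside the annotated mRNA. A run of this kind is absent from the windows of Rps27rt, where the longest run has 7 bases, of Rpl10a (7 and 5) and of Rpl3l (5 and 4). Members with and without the run thus stand at both ends. Of all 27025 gene symbols with a promoter entry, 23.6% hold such a run in the same window, and 24.004% hold one on the other strand (a run of A or G). Entries were matched for 66 of the 86 members (76.7%), under the 80% needed, so a share over the members would be void and is not given.

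Core genes with short coding sequences were lower in Ndrg2-KO DCs than those with long ones. Over the 77 core genes, Spearman's correlation between coding length and the log2 ratio was 0.50, across genes that share both libraries. The median log2 ratio was -0.62 for the 26 genes of up to 405 coding bases and -0.34 for the 25 genes of at least 582 bases. The same correlation was 0.06 with VD3, -0.02 in Ndrg2-KO wounds and -0.34 in blank wounds. Rps2 (log2 ratio -1.04), Rpsa (-0.72) and Rpl4 (-0.65) have coding sequences of 879, 885 and 1257 bases and were lower than the members' median, and Rps29, with 168 bases, was near it at -0.53. What sets this pattern was not tested.

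**Figure D3:**
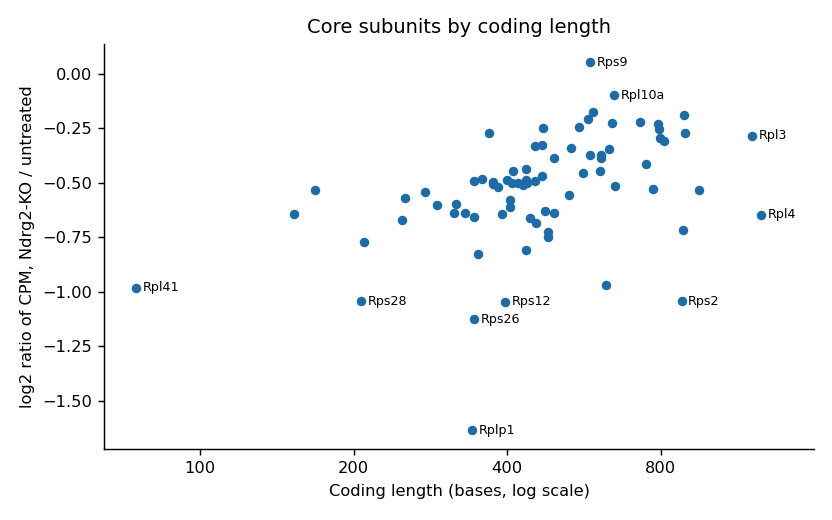
log2 ratio of CPM in Ndrg2-KO against untreated DCs (vertical axis) by coding length in bases (horizontal axis, log scale) for the 77 core genes, each a point. The shortest genes lie lower (median -0.62 up to 405 bases) than the longest (median -0.34 from 582 bases), with Rplp1 at -1.63 below all others.

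Cells were then clustered without the members and mitochondrial genes among the variable genes, so that ribosomal protein genes did not define the clusters, and clusters were named from marker lists. In the cultures, the share over the 3 libraries together was 26.2% in mature DC-like, 25.6% in basophil-like and 25.3% in cDC1-like cells, 21.7% in granulocyte-monocyte progenitor-like, 17.2% in neutrophil-like and 16.6% in cycling cells, and 12.4% in immature DC or macrophage-like cells. These sums weight the libraries unequally, and their order did not hold within each library. Cycling cells were above neutrophil-like cells in untreated DCs (18.6% against 18.1%) and in VD3 DCs (27.4% against 16.3%), cDC1-like cells were above basophil-like cells in VD3 DCs (26.2% against 24.98%), and immature DC or macrophage-like cells were above cycling cells in Ndrg2-KO DCs (12.4% against 11.8%). Mature DC-like cells were highest in each of the 3 libraries among the named classes with at least 50 cells there. The progenitor cluster also held neutrophil and cell cycle markers. The immature DC or macrophage class held 4066 cells of the Ndrg2-KO library and 5 of the untreated one, so class and condition cannot be told apart there. In untreated DCs, an unnamed cluster led by Plet1 and Cxcl3 (1072 cells) was at 14.3%, well under the mature cells of the same library at 26.6%.

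Within mature DC-like cells the share was 26.6% in 2716 untreated, 28.1% in 3487 VD3 and 21.9% in 2118 Ndrg2-KO cells. The order was that of the whole libraries, with log2 ratios of 0.08 for VD3 and -0.28 for Ndrg2-KO against untreated cells. Different clusters held most of this class in each library (cluster c2 in untreated, c1 in VD3 and c5 in Ndrg2-KO DCs). Within c2 alone, 160 Ndrg2-KO cells were at 23.5% and 2602 untreated cells at 26.6%. Of 84 members tested in mature cells, 71 were lower in Ndrg2-KO cells, 9 of them by at least 1.5-fold, beside 6.43% of all 9249 genes tested in this class. Rplp1 was again among the lowest, at 1796 against 4843 CPM in mature cells (log2 ratio -1.43) and at 1480 against 4891 CPM in cycling cells (-1.72).

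In cycling cells the share was 18.6% in 2276 untreated, 27.4% in 1477 VD3 and 11.8% in 1304 Ndrg2-KO cells, and 52 of 84 members were at least 1.5-fold lower in Ndrg2-KO than in untreated cycling cells, beside 16.0% of all genes. However, 98.7% of the VD3 cells of this class were in cluster c3, whose cells were shallow (a median of 1839.5 UMIs in VD3 DCs) and poor in mitochondrial UMIs (0.652%), whereas 75.2% of the untreated cells were in c6, with a median of 27456 UMIs, and 81.7% of the Ndrg2-KO cells were in c10, which also had markers of immature DCs or macrophages. Within c3 the share was 25.4% in untreated, 27.8% in VD3 and 18.7% in Ndrg2-KO cells. Within c6, 128 Ndrg2-KO cells were at 18.7% and 1711 untreated cells at 18.4%, so the summed share was not lower in Ndrg2-KO cells there. The median cell of c6 was at 18.3% in Ndrg2-KO and 18.5% in untreated DCs, with median depths of 15170 and 27456 UMIs.

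The smaller culture classes did not all follow the libraries. With VD3 the share was higher in cDC1-like cells, 26.2% in 148 cells against 23.7% in 77. It was lower in neutrophil-like cells, 16.3% in 1115 cells against 18.1% in 925. Basophil-like cells were at 24.98% against 26.3%, and granulocyte-monocyte progenitor-like cells at 21.6% in 1079 cells against 22.5% in 102. The share was thus higher with VD3 in cDC1-like cells and lower in the other 3 of these classes.

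**Figure D4:**
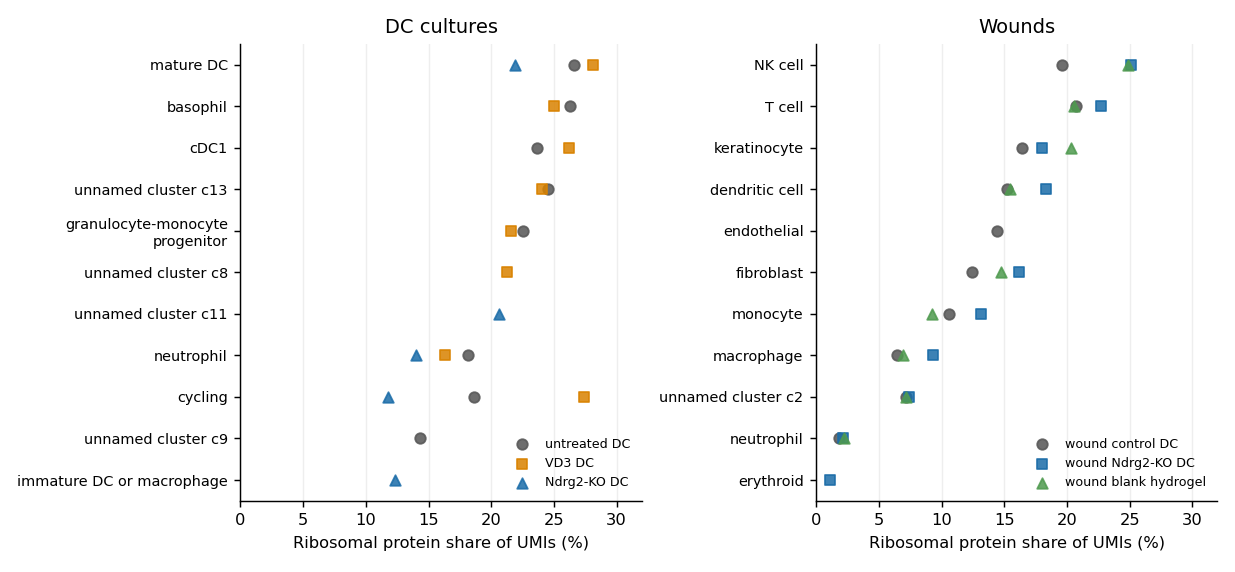
Share of UMIs from ribosomal protein genes (horizontal axis, percent) in each class or unnamed cluster (vertical axis) with at least 20 cells in a library, in DC cultures (left) and wounds (right). Each symbol is 1 library. Summed over the wounds the classes run from 1.02% in erythroid and 2.12% in neutrophil cells to 21.6% in T and 23.8% in NK cells, of which there were 22 to 30 per library, and Ndrg2-KO wounds lie to the right of control wounds in every named class that both hold.

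In the wounds, the share differed more between classes than between libraries. Summed over the 3 wounds, it was 23.8% in NK-like cells and 21.6% in T cell-like cells, 18.5% in keratinocyte-like, 16.8% in endothelial-like and 16.5% in dendritic cell-like cells, 14.3% in fibroblast-like cells, 11.1% in monocyte-like and 7.92% in macrophage-like cells, 2.12% in neutrophil-like and 1.02% in erythroid-like cells. Within control wounds T cell-like cells (20.7%) were above NK-like cells (19.6%) and dendritic cell-like cells (15.2%) above endothelial-like cells (14.5%), so this order did not hold within each library, and the NK-like class had 22 to 30 and the endothelial-like class 10 to 27 cells per library. The 6 classes with at least 50 cells in every wound stood in 1 order in all 3, from T cell-like through keratinocyte-like, fibroblast-like, monocyte-like and macrophage-like to neutrophil-like cells. The ends of the summed order also depend on the clustering: keratinocyte-like cells were highest at resolution 1.0 (24.4%), and neutrophil-like cells lowest with 30 components (2.15%). Wound neutrophils (1.78% to 2.24% by library) lay far below the neutrophil-like cells of the cultures (13.98% to 18.1%). The 13.98% came from 35 Ndrg2-KO cells, under the minimum of 50. These classes were named from lists that differ, with the granule genes Ltf, Camp and Lcn2 in that of the cultures only, so they may not hold like cells. Several wound clusters were mixed by their markers. The keratinocyte cluster also held markers of T cells (Cd3d, Trac), mast cells (Cpa3), mural cells (Rgs5) and skeletal muscle (Acta1, Ckm), beside hair follicle and pigment cell genes among its leading genes. Its share per cell was wide, with quartiles of 4.83% and 25.6% in Ndrg2-KO wounds, so values given for keratinocyte-like cells are those of a mixed cluster. The T cell cluster also held mast cell markers, the NK cluster T cell markers, the erythroid cluster neutrophil markers and the endothelial cluster mural cell markers, and 69 cells of the fibroblast class formed a cluster led by cell cycle genes.

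Ndrg2-KO and control wounds had almost the same share over all cells, with a log2 ratio of -0.0079. Of 84 members tested, 37 were higher and 47 lower, with a median of -0.01, while the median of 10297 genes was -0.14; relative to it the members were higher. Only Rpl39l passed 1.5-fold, downward, and it was also the 1 member that far from the member median, beside 22.3% of all genes. Of all 10847 genes, 8.41% were higher and 14.1% lower by 1.5-fold. The core genes lay within -0.51 (Rpl13a) and 0.20 (Rpl18). Rpl13a was at 92.5 against 131 CPM, Rpl5, which carries 5S RNA to the ribosome with Rpl11, at 447.5 against 569.9 CPM (-0.35), and Rps13 and Rpl19 were highest after Rpl18, at log2 ratios of 0.19 and 0.15.

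Within classes the values differed from the sum. Fibroblast-like cells were at 16.1% in 500 cells of Ndrg2-KO wounds against 12.4% in 483 cells of control wounds (log2 ratio 0.38, 0.38 to 0.38). Macrophage-like cells were at 9.35% in 645 against 6.43% in 377 cells (0.54), and monocyte-like cells at 13.2% in 397 against 10.6% in 184 cells (0.31). T cell-like, keratinocyte-like and neutrophil-like cells were higher by log2 ratios of 0.13, 0.14 and 0.24, and the unnamed cluster led by Mmp12 and Arg1 by 0.05. All 7 groups of at least 50 cells in both wounds were thus higher. In macrophage-like cells 81 of 83 members were higher, 34 of them by at least 1.5-fold, beside 11.2% of 6052 genes. The neutrophil class moved with this comparison: its share of cells was 51.0% in Ndrg2-KO and 23.5% in control wounds, and its share of UMIs 19.9% against 5.48%. With the class shares of Ndrg2-KO wounds weighted by the UMIs of the classes in control wounds, the members' share was 13.4% against 10.5%, and without the neutrophil class it was 12.8% against 11.2%.

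Blank and control wounds, which share the control library with the comparison above, had a log2 ratio of -0.09. Of 84 members, 74 were lower and 10 higher, and none passed 1.5-fold, beside 7.79% of 10538 genes upward and 10.3% downward. No member stood 1.5-fold from the member median, beside 18.2% of all genes, and the standard deviation over the core genes was 0.07. Rpl13a, Rpl5 and Rpl4 were lowest at log2 ratios of -0.28, -0.26 and -0.25, and Rps27l was highest at 0.17. By class, fibroblast-like cells were at 14.7% in blank wounds against 12.4%, keratinocyte-like cells at 20.3% against 16.4% and neutrophil-like cells at 2.24% against 1.78%, while monocyte-like cells were lower, 9.24% against 10.6%, and T cell-like cells at 20.5% against 20.7%. Weighted by the classes of control wounds, the blank wounds were at 11.9% against 10.5%.

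By their share of the members' UMIs, the members with the widest log2 range between classes were Rpl3l (2.91), Rpl7l1 (2.21) and Rps19bp1 (1.86) in the cultures and Rpl3l (10.2), Rpl39l (5.70) and Rps27l (2.90) in the wounds. Counts under 3 in a class were set to 3. The ranges of Rpl3l, and that of Rpl39l in the wounds, are thus lower bounds. For Rpl3l the lowest class after this step had 1 UMI in the cultures and 2 in the wounds. For Rpl39l it was the monocyte-like class with 4 UMIs, while NK-like, dendritic cell-like, endothelial-like and erythroid-like cells held none. Rps19bp1, the only one of the members listed that is no paralog, was at 58.0 CPM in neutrophil-like and at 24.3 CPM in mature DC-like cells of the cultures. Rpl3l (chr17:24727820-24736143, plus strand), a paralog of Rpl3 known from striated muscle, was at 17.6 CPM (16.8 to 18.3) in mature DC-like cells and at 0.760 to 5.37 CPM in the other 6 named classes of the cultures. In the wounds it was at 13.2 CPM in neutrophil-like cells (11.6 to 15.1) and at 0.0490 CPM in fibroblast-like cells (0.00593 to 0.177, 2 UMIs). Wound neutrophils had so little Rpl3 (37.9 CPM) that Rpl3l gave 25.9% of the UMIs of the pair there, against 1.16% in mature DC-like cells. T cell-like and NK-like cells held no UMI of Rpl3l, with upper limits of 1.30 and 5.07 CPM. By library it was at 1.38, 3.09 and 3.58 CPM in control, Ndrg2-KO and blank wounds, from 41, 152 and 125 UMIs, and the intervals of Ndrg2-KO (2.62 to 3.62) and blank wounds (2.98 to 4.27) overlap. The neutrophil class held 5.48%, 19.9% and 16.9% of the UMIs of these wounds, and its part in the levels of Rpl3l was not tested.

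Rpl39l (chr16:10170226-10174911, plus strand), a paralog known from testis, had its UMIs mostly in fibroblast-like cells, 1232 of 1292 in the named wound classes. It was at 30.2 CPM there (28.5 to 31.9), at 11.6 CPM in the mixed keratinocyte-like cluster (8.14 to 15.9) and at 1.41 CPM or less in the other 8 classes. In the whole wounds it was at 15.1 CPM in control, 8.29 in Ndrg2-KO and 13.2 in blank wounds. Fibroblast-like cells gave 52.3%, 29.4% and 31.0% of the UMIs of these libraries, and within them Rpl39l was at 26.7, 25.7 and 41.2 CPM. The log2 ratio of Ndrg2-KO to control wounds was -0.87 over all cells and -0.06 within fibroblast-like cells. In the cultures it was at 0.962 to 1.37 CPM.

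Rps27l (chr9:66946086-66949516, plus strand) was at 823 to 1222 CPM in the cultures and at 266 to 300.4 CPM in the wounds, and within the wounds it was highest in dendritic cell-like cells at 1162 CPM, against 42.3 to 472 CPM in the other classes with over 100 of its UMIs. As a share of the UMIs of the pair with Rps27, it was 42.04% in untreated, 26.98% in VD3 and 42.01% in Ndrg2-KO DCs, and 11.3% to 13.3% in the wounds. It was 51.95% in cycling and 47.4% in immature DC or macrophage-like cells of the cultures but 3.84% in wound T cell-like cells, where Rps27 was at 5834 CPM. Within classes, Rps27l was lower with VD3 in mature DC-like cells (801 against 1224 CPM) and in neutrophil-like cells (1094.5 against 1338 CPM).

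Rpl22l1 (chr3:28805436-28807424, plus strand), whose level is known to rise when Rpl22 is lost, gave 23.4% to 25.9% of the pair with Rpl22 in the cultures and 31.98% to 35.6% in the wounds. In the wounds its part of the pair was highest in fibroblast-like cells, 40.9%, followed by neutrophil-like cells at 37.6% (35.5% to 39.7%) and the keratinocyte-like cluster at 37.3%. In the cultures it was highest in granulocyte-monocyte progenitor-like cells, 37.4%, and lowest in neutrophil-like and mature DC-like cells, 15.6% and 16.3%. Rpl36al gave 18.9% to 22.8% of the pair with Rpl36a in all 6 libraries. Rpl7l1 gave 2.58% to 5.06% of its pair with Rpl7, most in wound neutrophils at 11.5%. Rpl10l, a testis paralog, had 0 to 3 UMIs per library. Rps4l is not among the gene rows.

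**Figure D5:**
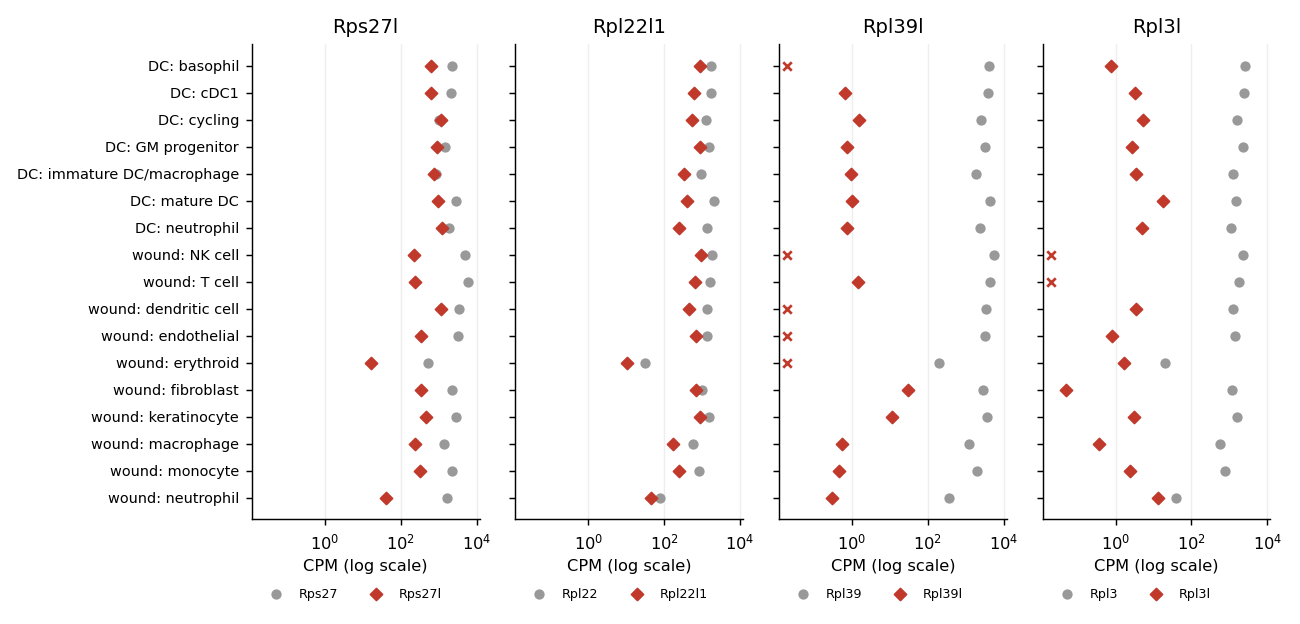
CPM (horizontal axes, log scale) of 4 paralogs (red) and their parent genes (grey) in the named classes of cultures and wounds (vertical axis), libraries of a set summed; crosses mark 0 UMIs. Rpl39l stands out in fibroblasts (30.2 CPM) and keratinocytes (11.6 CPM), Rpl3l in mature DCs (17.6 CPM) and wound neutrophils (13.2 CPM), and Rps27l, among the wound classes, in dendritic cells (1162 CPM), while culture neutrophils were at 1213 CPM.

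Core genes too were not in fixed proportion across classes. In the cultures, Rplp1 ranged from 3.06% of the members' UMIs in neutrophil-like cells to 1.14% in immature DC or macrophage-like cells, which are almost all from the Ndrg2-KO library, and Rpsa from 4.43% in mature DC-like to 1.96% in neutrophil-like cells. In the wounds, Rps18 ranged from 1.83% in NK-like to 0.250% in erythroid-like cells (15 UMIs), Rpl10a from 0.897% in fibroblast-like to 0.123% in neutrophil-like cells, and Rpsa from 1.83% in dendritic cell-like to 0.329% in neutrophil-like cells. Rps27, in contrast, made up 7.67% of the members' UMIs of wound neutrophils and 1.55% of those of keratinocyte-like cells. Its level was nevertheless lower in the neutrophils, at 1628 against 2866 CPM.

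Other genes of the ribosome and of translation were read beside the members. Rack1, a scaffold on the small subunit, was at 1520, 1693 and 1087 CPM in untreated, VD3 and Ndrg2-KO DCs, in the order of the members. Fau, which encodes Rps30 fused to a ubiquitin-like protein, was at 5095, 6803 and 3693 CPM and in the wounds at 2034 CPM in control, 2820 in Ndrg2-KO and 2359 in blank wounds. In a list of 20 translation factors and related genes, which includes both, 1 was at least 1.5-fold higher with VD3 (Pabpc1, a poly(A)-binding protein) and none lower, with a median of 0.26, beside 8.07% of all genes upward and 14.3% downward. In Ndrg2-KO DCs 4 were lower (Eef1d, Eef1g, Npm1 and Hnrnpa1), with a median of -0.26, beside 16.9% of all genes. In the wounds 1 of 20 was lower with Ndrg2-KO DCs (Eif4b), beside 14.1% of all genes, and none with blank hydrogels, beside 10.3%, with medians of -0.16 and -0.15. These counts lay near or under the shares over all genes.

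Genes of ribosome biogenesis, which make and process ribosomal RNA, differed in direction from the members with VD3. Of 20 genes, 14 were at least 1.5-fold lower and none higher with VD3 (median log2 ratio -0.63), beside 14.3% of all genes that were lower. Nop58, a guide RNA protein, was at 36.0 against 69.8 CPM and Dkc1, the pseudouridine synthase, at 19.7 against 40.55 CPM. In Ndrg2-KO DCs 17 of 20 were lower (median -0.93), beside 16.9% of all genes, with Dkc1 at 10.7 CPM and Nop58 at 19.3 CPM. These counts are over whole libraries, and the part of the class mix in them was not tested. Cycling cells gave 43.0%, 2.92% and 21.1% of the UMIs of untreated, VD3 and Ndrg2-KO DCs. The progenitor-like class, which also held cell cycle markers, gave 2.06%, 23.5% and 0.0921%. In the wounds 10 of 19 tested were lower with Ndrg2-KO DCs (median -0.59), beside 14.1% of all genes, and 2 of 19 with blank hydrogels (Nop58 and Myc, median -0.29), beside 10.3%. Fibroblast-like cells gave 52.3%, 29.4% and 31.0% of the UMIs of control, Ndrg2-KO and blank wounds, and neutrophil-like cells 5.48%, 19.9% and 16.9%. The part of this mix in the counts was not tested. Myc, which drives genes of ribosome biogenesis and is itself counted among the 20, was at 158, 63.8 and 76.0 CPM in control, Ndrg2-KO and blank wounds. The 78 mitochondrial ribosomal protein genes had medians of -0.05 with VD3 and -0.31 in Ndrg2-KO DCs (11 of 77 tested lower and 1 higher by 1.5-fold, a share of lower genes under the 16.9% of all genes), and of 0.22 and 0.05 in Ndrg2-KO and blank wounds.

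The share also varied with the depth of the cells within a library. In untreated DCs it was 20.9% in the shallowest of 5 equal groups of cells, 25.2% in the next, where it was highest, and 18.6% in the deepest. In VD3 DCs it was 21.1% in the shallowest, highest in the middle group at 27.3% and 23.1% in the deepest. In Ndrg2-KO DCs it was 20.03% in the shallowest and 11.9% in the deepest group. In control wounds it ran from 3.91% in the shallowest to 11.98% in the deepest group, and in Ndrg2-KO wounds it was 3.59% in the shallowest, 2.98% in the next and 13.3% in the deepest group. The part of depth in the differences between libraries was not tested beyond the limits on UMIs per cell tried as alternatives.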

How the data were processed

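The authors deposited 10x 3′ matrices of whole UMI counts per gene and barcode, made with Cell Ranger 3.1.0 (cultures) and 6.0.0 (wounds) per the file headers. The study's methods name mm10, whereas the submitters' processing notes list mm9, so no coordinates were taken from the files. Of the barcodes in the deposited files, each was kept from 300 genes on, if it held fewer than 100000 UMIs and less than 10% of them were mitochondrial. The study's methods give 300 unique transcripts in place of genes, so 300 UMIs were tried as an alternative. Doublets were kept; Scrublet in scanpy 1.11.5 marked at most 0.873% of cells by its own threshold, so the highest 6% of scores were left out as an alternative. UMIs were summed per library or class and given as a percent of all UMIs or as CPM. log2 ratios carry exact conditional binomial intervals, shares Clopper-Pearson and CPM Poisson intervals (95%), computed in Python 3.11.15 with SciPy 1.17.1. Counting error is all they cover. A ratio was read as past the threshold from 1.5-fold with at least 200 UMIs in both libraries together, and the same rule over all genes is the background. The ratio and its interval were tested on simulated data. Cultures and wounds were clustered apart in Seurat 5.3.0 (2000 variable genes, 15 components, 15 neighbours, resolution 0.5). A cluster was named from at least 3 markers of a list at 50 CPM or more and 2-fold over other cells. Gene positions and coding lengths come from GENCODE M21 and promoters from RefSeq. Named were, per comparison, the 3 members highest and the 3 lowest by ratio less the member median, the 3 highest members and 3 lowest core genes by mean CPM, the 3 with the widest range over classes, the paralogs, their parents, and Rack1 and Fau; other genes named were chosen after their values were seen. Members and lists were chosen with earlier results of these data known. Some genes, and a recount of the share that includes them, are not reported here.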

Additional observations from a re-analysis of the deposited data

Results flagged for a closer look

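In 2 comparisons the members' share moved in opposite directions in different classes. With VD3 it was lower in neutrophil-like cells (log2 ratio -0.15) and higher in cycling cells (0.56), where VD3 and untreated cells came from different clusters. In blank against control wounds it was lower in monocyte-like cells (-0.20) and higher in neutrophil-like cells (0.33). With 1 library per condition the difference between the classes was not tested.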

How the results depend on the processing

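Each condition had 1 library, so no spread between replicates limits these values, and most shares of UMIs left their narrow counting intervals under any change. No paired analysis was possible because each group had 1 sample and no result came from a test. Of the alternatives run, 47 stayed within the counting interval or within 1.5 times the count, 46 moved and 5 reversed. The cause was not tested.

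The log2 ratio of the members' share with VD3 (0.26) was 0.25 with all barcodes, 0.21 under 5% mitochondrial UMIs, 0.26 without the highest doublet scores, 0.27 above 2000 UMIs per cell, 0.27 without mitochondrial UMIs, 0.27 with core genes only, and 0.20 as a mean over cells. In the same order, except for the value with core genes only, it was -0.52, -0.53, -0.54, -0.53, -0.52 and -0.44 in Ndrg2-KO DCs (-0.53). Without the shallow clusters, chosen after seeing the data, it was 0.28 and -0.54.

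In Ndrg2-KO wounds (-0.0079) it was -0.053 with 300 UMIs in place of 300 genes, -0.038 with all barcodes, -0.014 under 5% mitochondrial UMIs, -0.010 without mitochondrial UMIs and -0.29 as a mean over cells, and it turned to 0.021 without the highest doublet scores. In blank wounds (-0.09) it was -0.058 with 300 UMIs, -0.019 with all barcodes, -0.099 under 5% mitochondrial UMIs, -0.056 without the highest doublet scores and -0.38 as a mean over cells. With the class weights of control wounds, chosen after seeing the data, the ratios turned to 0.35 and 0.18 in Ndrg2-KO and blank wounds, and without the neutrophil class to 0.19 and 0.053.

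With VD3, 1 member passed 1.5-fold without the highest doublet scores, against 0, and 0 stood 2-fold from the member median, against 3 at 1.5-fold. In Ndrg2-KO DCs 6 passed 2-fold and 20 passed 1.5-fold after median-ratio scaling, against 31, and 2 stood 2-fold from the member median, against 4. In Ndrg2-KO wounds 0 passed 2-fold, 2 passed 1.5-fold from 50 UMIs and 0 from 1000 UMIs, against 1, with the same counts from the member median. In blank wounds 1 passed from 50 UMIs, against 0, also from the member median. The range of the share over wound classes, 22.8 percentage points, was 23.4 at resolution 1.0, 21.2 with 30 components, 21.1 with members among the variable genes and 22.2 without the highest doublet scores. In the cultures, 13.9 points became 14.5, 14.02, 13.9 and 13.8.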
